A study of Tupaia belangeri with 15 samples.

Results

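Ephrin-B ligands and the receptors that bind them were followed across cell classes, cell subtypes and life stages of the tree shrew (TS, Tupaia belangeri) retina. The 9 members, found in the tables by gene name, were the ligands EFNB1, EFNB2 and EFNB3, the receptors EPHB1, EPHB2, EPHB3, EPHB4 and EPHB6, and EPHA4, a receptor named for the other subclass that also binds ephrin-B proteins. They are 9 of the 83605 features in the deposited tables, and each name matched 1 feature.

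Single-nucleus RNA sequencing was performed on 15 retinas of TSs without a named strain, treatment or transgene, 5 from each of the stages labelled Infancy, Mature and Senile. The sample labels give the stage and no age. Infant and mature animals came from one animal centre and senile animals from another institute, so that source and the senile stage cannot be told apart. Each retina is treated as a replicate, and p-values measure the spread between retinas.

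Ephrin-B ligands are membrane-spanning proteins, so ligand and receptor meet where cells touch. A bound EphB receptor signals into its own cell through its tyrosine kinase, which acts on regulators of the actin skeleton, and a bound ephrin-B signals back into the ligand cell through its short tail, which binds adaptors with PDZ and SH2 domains. In the developing visual system this exchange is known for steering axons of retinal ganglion cells (RGCs), both at the optic chiasm and in the map laid on the midbrain, and for ordering dendrites and synapses.

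Of 120437 barcodes, 119765 passed the study's limits on genes and mitochondrial share, 7940 were called doublets, and 96453 of the remaining 111825 nuclei were given a class. The classes were cones, rods, bipolar cells (BCs), horizontal cells (HCs), amacrine cells (ACs), RGCs, Müller cells, astrocytes and microglia. Retinas held 13429873 to 58734300 unique molecular identifiers (UMIs, 1 per captured RNA molecule) and shared 4 to 30 barcodes pairwise. The defining markers were present in every class, from 5 of 5 in HCs to 6 of 9 in BCs at 20 CPM or more (CPM, counts of a gene per 1000000 counts). Among the markers that fell short, CNGA1 in rods, GRIK1 and CABP5 in BCs, GAD2 in ACs, and NEFL and POU4F2 in RGCs were each under 1 CPM. Matrix headers name Cell Ranger 6.1.2 for 7 retinas and 7.0.1 for 8, in all stages, and members differed with it: in ACs, EFNB2 lay at 84.4 to 113 CPM in the 6.1.2 retinas and at 107 to 215 CPM in the 7.0.1 retinas. In HCs, EPHB1 lay at 1299 to 1919 CPM in the former and at 529 to 1847 CPM in the latter. The version was therefore a term in the edgeR and DESeq2 fits between stages, and its part in each level was not tested. The registration numbers of the 7 retinas and of the 8 form separate blocks. The version thus cannot be told apart from other differences between these sets of samples.

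Levels below are CPM of a gene among all UMIs of a class in a retina, given as mean ± SD over retinas with at least 10 nuclei of that class. The members took no part in clustering or in naming the clusters. Neighbours in a gene's order of levels were compared within retinas on log2(CPM + 1), whose mean set the order and can rank classes of few UMIs otherwise than the mean CPM does, with an exact 2-sided sign-flip permutation test, whose smallest p with 15 retinas is 6.1e-05, and p-values were adjusted over the neighbour pairs of all genes. Past an adjusted p of 0.05 were 16 of 72 neighbour pairs of the members (22.2%), beside 17.9% of the pairs of 15480 genes. Those genes, over which p-values were adjusted, had a mean of at least 10 CPM in a class. EFNB3, EPHB3 and EPHB4 did not reach that level but were counted among the members, so the shares are not on equal terms. The highest class exceeded the next for 4 of the 9 members, EFNB2, EPHB1, EPHB2 and EPHA4, and 44.7% of the genes at that level had such a top class.

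EFNB2 was the one ligand found at a substantial level, and it was found in every class. This ligand is the main ephrin-B of the early retina and of blood vessels. Its level was 129 ± 39.1 CPM in ACs (lowest 84.4, median 113, highest 215, n = 15), 103 ± 23.3 in cones (72.8, 99.6 and 150, n = 15), 100.4 ± 31.3 in BCs (65.6, 88.0 and 152, n = 15) and 85.7 ± 24.9 in RGCs (58.6, 70.9 and 132, n = 15). ACs stood above every other class on average, but their range overlapped all of those 3. Within a retina ACs exceeded cones in 13 of 15 retinas, by 0.31 ± 0.24 on the log2 scale (exact p = 0.00061, adjusted p = 0.00544), and BCs exceeded RGCs in 12 of 15, by 0.22 ± 0.22 (exact p = 0.00208, adjusted p = 0.0148). In the 7 retinas of Cell Ranger 6.1.2 alone neither passed (0.19, exact p = 0.109, and 0.15, exact p = 0.141), and the second did not pass with LINC-FRMD8-1, a long noncoding RNA holding 12.1% to 21.2% of the UMIs of a retina, left out of the totals (0.0894, exact p = 0.118). Cones and BCs, RGCs and rods, rods and HCs, and every pair further down did not differ beyond their spread. The lower end held HCs at 70.9 ± 29.2, astrocytes at 54.8 ± 29.8 and Müller cells at 46.6 ± 14.2 CPM.

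EFNB1 was scarce, with 1088 UMIs over all named nuclei. ACs held 594 of these, at 5.16 ± 1.46 CPM (2.76 to 7.61, n = 15). Its mean in microglia, 16.3 ± 18.9 CPM over 12 retinas, rested on 9 UMIs and did not differ from that in ACs (higher in 7 of 12 retinas, exact p = 0.828, adjusted p = 1.00). Means above that of ACs were found also in astrocytes, 11.3 ± 14.6 CPM on 18 UMIs, and HCs, 6.85 ± 8.03 CPM on 16 UMIs. EFNB3 was near absent, with 9 UMIs, too few to rank any class.

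EPHB1 was a horizontal cell gene first and a ganglion cell gene second. This receptor is known for turning RGC axons away from the chiasm midline. Its level was 1252 ± 462 CPM in HCs (529, 1299 and 1919, n = 15), 177 ± 51.6 in RGCs (80.5, 180.0 and 276, n = 15), 54.8 ± 31.9 in astrocytes (7.16 to 127, n = 15) and 32.1 ± 7.04 in ACs (19.8 to 41.3, n = 15). The lowest HC value of any retina was above the highest RGC value. BCs followed at 12.5 ± 5.49 CPM, and Müller cells, rods and cones stayed at or under 4.00 CPM on average. The microglia mean, 9.60 ± 24.4 CPM over 12 retinas, rested on 6 UMIs, and microglia were last in the order on the log2 scale. HCs exceeded RGCs in 15 of 15 retinas by 2.77 on the log2 scale, RGCs exceeded astrocytes in 15 of 15 by 1.90, ACs exceeded BCs by 1.38 and BCs exceeded Müller cells by 1.58 (each exact p = 6.1e-05 and adjusted p = 0.000994). The last of these differences was -0.18 (exact p = 0.207) when each nucleus was named alone by its highest marker score. Astrocytes and ACs did not differ beyond their spread. The HC values rest on 1000 nuclei, 15 to 116 per retina.

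EPHA4 had the same first and second class. It is the broad binder of the Eph family, taking both ephrin-A and ephrin-B ligands. HCs stood at 638 ± 272 CPM (218, 676 and 1190, n = 15), RGCs at 154 ± 19.7 (125, 149 and 193, n = 15), Müller cells at 65.2 ± 17.0 (23.8 to 86.7) and ACs at 53.1 ± 7.44 (39.7 to 72.0). HCs were above RGCs in 15 of 15 retinas, by 1.92 on the log2 scale, and RGCs above Müller cells by 1.28 (each exact p = 6.1e-05, adjusted p = 0.000994). Müller cells and ACs were not told apart, and ACs exceeded BCs, at 10.3 ± 4.13 CPM, by 2.35. When each nucleus was instead named alone by its highest marker score, which kept the class of 70.2% of the named nuclei, the HC to RGC difference was -0.15 for EPHA4 (exact p = 0.109) and 0.53 for EPHB1 (exact p = 0.000122).

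Both receptors were counted in single nuclei, and whether they met more often than their separate shares give was not tested. EPHB1 UMIs were seen in 85.4% of HC nuclei and EPHA4 UMIs in 72.1%, and 65.0% had both. Among RGC nuclei 42.9% had EPHB1, 55.2% had EPHA4 and 25.8% had both, while 0.68% of AC nuclei had both. Cones, which hold little of either receptor, set the background at 0.877% for EPHB1 and 0.931% for EPHA4, with a median of 3084 UMIs per nucleus beside 2234.5 in HCs and 5224 in RGCs. Thinned to 1000 UMIs per nucleus, shares with EPHB1 were 66.5% in HCs, 14.1% in RGCs and 0.169% in cones, and shares with EPHA4 were 43.0%, 15.96% and 0.282%.

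EPHB2 had another order. This receptor is known for sorting axons and for gathering excitatory receptors at synapses. Its level was 74.3 ± 15.4 CPM in ACs (44.4, 75.1 and 103, n = 15), 36.2 ± 9.97 in RGCs (18.4 to 52.3), 31.5 ± 13.1 in Müller cells (11.2 to 51.5) and 13.9 ± 4.79 in BCs. In HCs, the class highest in EPHB1, it was at 5.82 ± 9.62 CPM with 13 UMIs. ACs were above RGCs in 15 of 15 retinas, by 1.04 on the log2 scale, and Müller cells above BCs by 1.08 (each exact p = 6.1e-05, adjusted p = 0.000994), whereas RGCs and Müller cells did not differ beyond their spread.

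EPHB6, whose kinase domain is inactive, was found in rods at 29.7 ± 19.5 CPM (60 UMIs, n = 13) and ACs at 24.0 ± 9.94 CPM (2625 UMIs, n = 15), which were not told apart. Rods exceeded BCs, at 4.41 ± 1.73 CPM, in 12 of 13 retinas (log2 difference 2.08, exact p = 0.00171, adjusted p = 0.0127), but not past the test in the 6.1.2 retinas alone (1.61, exact p = 0.125). HCs had 0 UMIs of EPHB6.

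EPHB4, the receptor of venous endothelium, was at 4.84 ± 5.03 CPM in astrocytes and 3.32 ± 3.16 in Müller cells, and at 0.23 CPM or less elsewhere. EPHB3 had 0 UMIs in all named nuclei, which allows up to 0.00937 CPM of this feature by counting error alone. A second feature annotated as a copy, EPHB3li1, had 5 UMIs over all barcodes within the limits.

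**Figure D1:**
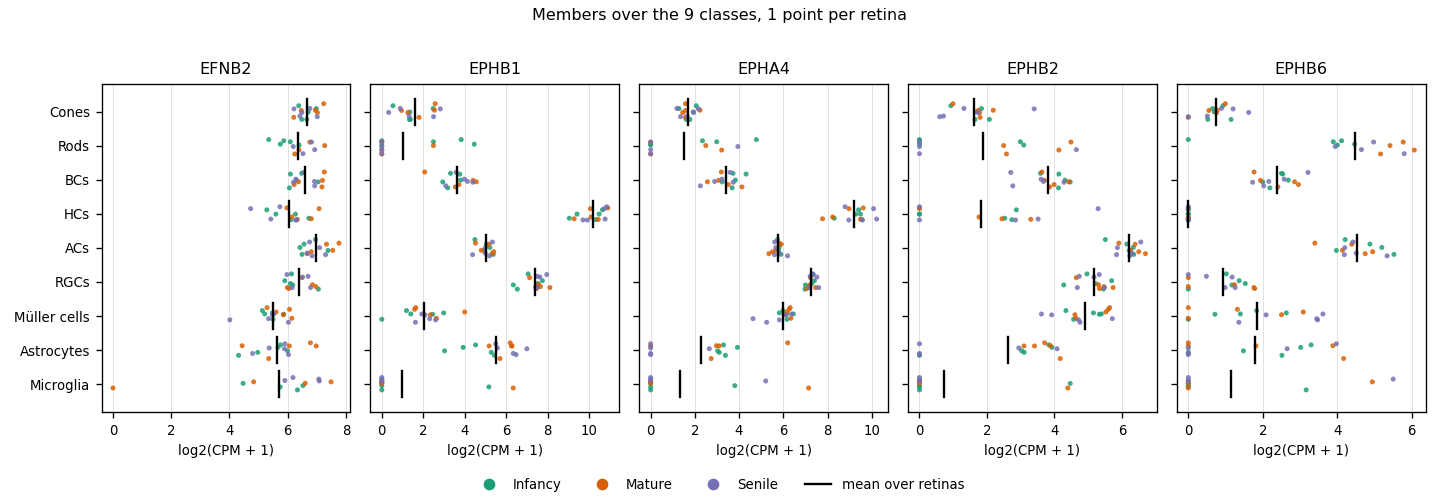
log2(CPM + 1) of EFNB2, EPHB1, EPHA4, EPHB2 and EPHB6 (x axes) in the 9 classes (rows), with 1 point per retina coloured by stage and a bar at the mean over retinas. EPHB1 and EPHA4 peak in HCs at means of 1252 and 638 CPM, EPHB2 peaks in ACs at 74.3 CPM, and EFNB2 is spread over all classes between means of 46.6 and 129 CPM.

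Within ACs and RGCs the receptors differed more between subtypes than EFNB2 did, whose means ran from 58.6 to 153 CPM. Subtypes were gated on the marker levels of subclusters, with thresholds set after the subclusters had been seen, into 10 AC and 6 RGC groups. Over these 16 groups, 7 of 135 neighbour pairs of the members passed an adjusted p of 0.05 (5.19%), beside 2.46% of the pairs of 13061 genes. Those genes had a mean of at least 10 CPM in a group. EFNB1, EFNB3, EPHB3 and EPHB4 did not reach that level but were counted among the members, so the shares are again not on equal terms. The members' highest group exceeded the next for EPHB1, EPHB2 and EPHB6, and 14.2% of the genes at that level had such a top group.

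EFNB2 ran from 153 ± 60.2 CPM in starburst ACs (86.4, 119.6 and 291, n = 15) down to 58.6 ± 24.97 in RUNX1-positive RGCs (16.2 to 119.9, n = 13). The 10 AC groups took the 10 highest means, from 97.2 CPM in VGluT3-positive ACs upwards, and the 6 RGC groups the lowest, from 88.8 CPM in SPP1-positive RGCs downwards. No neighbour pair in this order passed, and the step from AC to RGC groups was not tested as such. At a finer grain, all 62 AC clusters of at least 100 nuclei held EFNB2 at 103 CPM or more, with a highest value of 187 CPM, and the 9 RGC clusters lay at 57.0 to 97.1 CPM.

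EPHB1 was highest in SLIT2-positive RGCs, at 348 ± 115 CPM (126, 359 and 524, n = 12). SLIT2 encodes a secreted guidance protein and was used here only as the gate. SPP1-positive RGCs had 172 ± 43.6, RGCs outside the named gates 171 ± 42.9 and FOXP2-positive RGCs 155 ± 61.5 CPM, 3 groups whose neighbours in the order did not differ beyond their spread, whereas CALCRL-positive RGCs had 45.4 ± 30.7 and RUNX1-positive RGCs 2.81 ± 4.07 CPM. SLIT2-positive RGCs exceeded the RGCs outside the named gates in 12 of 12 retinas, by 0.95 on the log2 scale (exact p = 0.000488, adjusted p = 0.0257). The difference lay between 0.91 and 1.01 over 7 other settings. It did not pass in the 7.0.1 retinas alone, but it kept its sign in each of them, and they were too few for this test to pass. When single UMIs of the markers gated the nuclei, the highest EPHB1 group did not exceed the next past the threshold. Among ACs, the group positive for TAC1 or VIP, both neuropeptide genes, had 121 ± 37.7 CPM (29.4, 120.3 and 181, n = 15) and exceeded NFIB-positive ACs, at 65.6 ± 38.4, in 14 of 15 retinas (0.99, exact p = 0.000244, adjusted p = 0.0178). FAT4-positive, RELN-positive, DRD2-positive, starburst and PDGFRA-positive ACs lay at 9.34 CPM or less.

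Single subclusters were chosen after their EPHB1 values had been seen and carry no test. The 1 subcluster led by TAC1, of 713 nuclei, had 297 ± 114 CPM of EPHB1 (80.3 to 486, n = 15) and the 1 led by VIP, of 695 nuclei, had 4.24 ± 7.90 (0 to 28.0, n = 15), so all retinas of the first were above all of the second. Of the SLIT2-positive RGCs, 374 nuclei in subclusters over 500 CPM had 599 ± 108 CPM and 315 nuclei in subclusters under 100 CPM had 50.3 ± 29.9 CPM, each over 11 retinas. One glycinergic subcluster of 249 nuclei reached 451 ± 171 CPM (148 to 750.0, n = 14). In BCs, 1 cluster of 4243 nuclei held 68.0 ± 39.3 CPM (9.98 to 148, n = 15) beside 5.02 ± 1.86 CPM in the BCs of the other clusters (2.22 to 10.1, n = 15).

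EPHA4 separated the subtypes in another way. It was highest in VGluT3-positive ACs at 228 ± 38.8 CPM (152, 229 and 309, n = 15) and DRD2-positive ACs at 207 ± 52.6 (119, 213 and 334, n = 15), followed by all 6 RGC groups between 189 ± 30.0 and 106 ± 29.7. RUNX1-positive RGCs, which had almost no EPHB1, were among these at 165 ± 33.4 CPM (126 to 236, n = 13). Glycinergic ACs outside the gates had 85.7 ± 18.1 CPM and exceeded PDGFRA-positive ACs, at 44.8 ± 17.6, in 15 of 15 retinas (1.01 on the log2 scale, exact p = 6.1e-05, adjusted p = 0.0076). The lowest levels, 8.03 ± 4.84 and 6.30 ± 4.95 CPM, were in ACs positive for TAC1 or VIP and in starburst ACs. All 9 RGC clusters lay between 102 and 233 CPM.

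EPHB2 was led by VGluT3-positive ACs as well, at 236 ± 58.0 CPM (138, 233 and 334, n = 15). VGluT3, the product of SLC17A8, is a transporter that loads vesicles with glutamate. The next groups were PDGFRA-positive ACs at 115 ± 40.7 CPM (67.5, 104 and 216, n = 15) and DRD2-positive ACs at 80.7 ± 22.9 CPM (39.6, 82.1 and 121, n = 15). The first exceeded the second in 15 of 15 retinas, by 1.06 on the log2 scale (exact p = 6.1e-05, adjusted p = 0.0076), and the second the third in 14 of 15, by 0.50 (exact p = 0.000916, adjusted p = 0.0413). The latter was lost when single UMIs of the markers gated the nuclei (0.41, exact p = 0.0506) and in the 6.1.2 retinas alone (0.29, exact p = 0.109). Starburst ACs, at 32.8 ± 14.2 CPM, were the lowest AC group, and SPP1-positive RGCs, at 15.0 ± 8.77 CPM, the lowest of all 16.

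EPHB6 was concentrated in starburst ACs, the cholinergic ACs that serve direction selectivity, with 178 ± 62.1 CPM (120.3, 149 and 312, n = 15) and 1944 of the 2625 UMIs in ACs. The next group, ACs positive for TAC1 or VIP, had 16.8 ± 6.25 CPM (3.01 to 25.9), and every starburst value was above every value of that group. The difference was 3.39 on the log2 scale and had the same sign in 15 of 15 retinas (exact p = 6.1e-05, adjusted p = 0.0076). A set of 3306 nuclei in CHAT-positive subclusters that were high in TCF4, chosen after values were seen and not part of the starburst gate, had 1.00 ± 1.84 CPM of EPHB6 (0 to 6.08, n = 15).

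**Figure D2:**
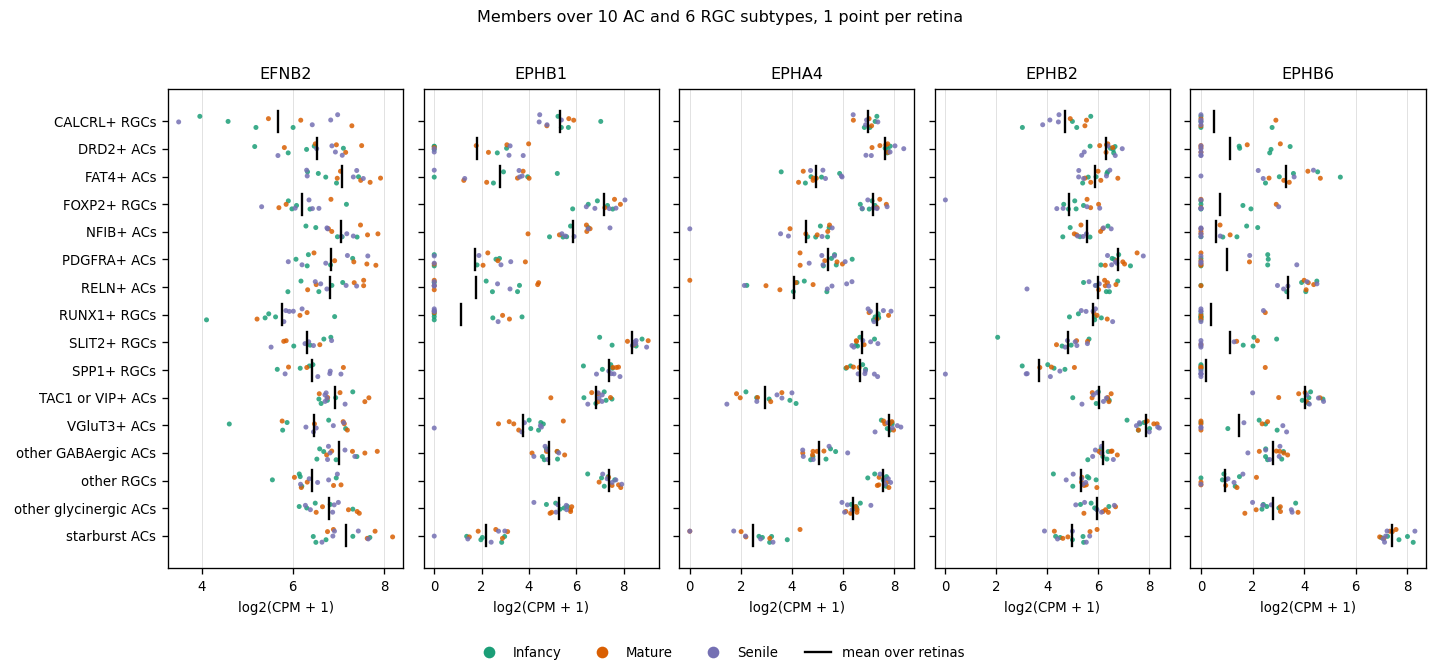
log2(CPM + 1) of 5 members (x axes) in 10 AC and 6 RGC subtypes (rows), with 1 point per retina coloured by stage and a bar at the mean over retinas. EPHB6 stands out in starburst ACs at 178 CPM, EPHB2 in VGluT3-positive ACs at 236 CPM and EPHB1 in SLIT2-positive RGCs at 348 CPM, while the EFNB2 means run only from 58.6 to 153 CPM.

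**Figure D3:**
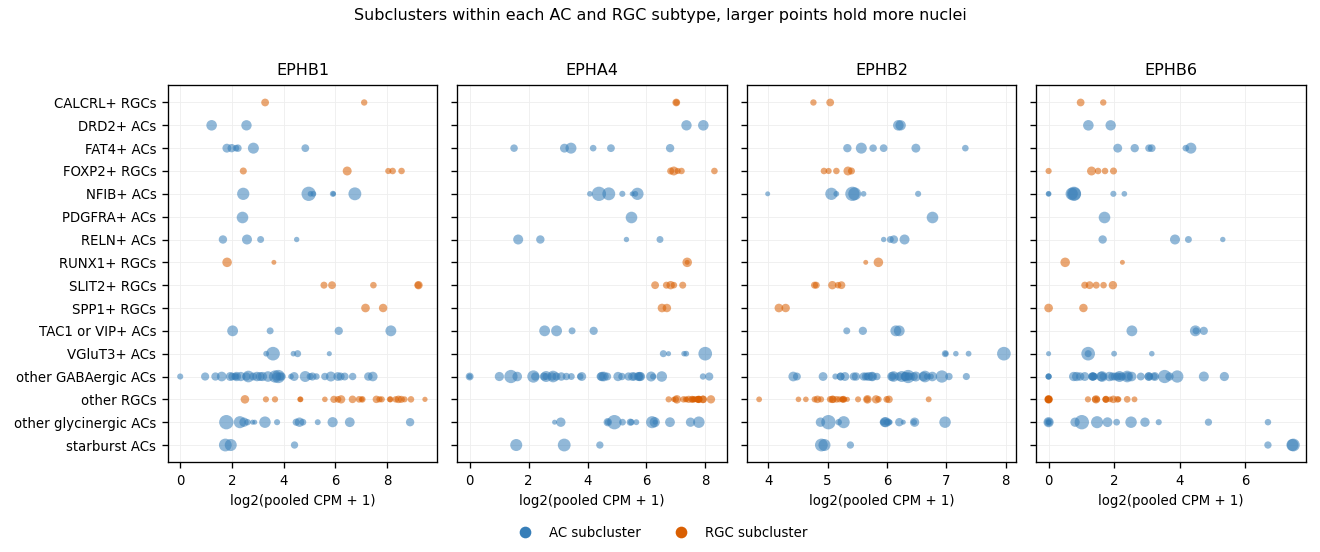
log2(CPM + 1) of 4 receptors pooled over retinas (x axes) in each subcluster of the AC and RGC subtypes (rows), where larger points hold more nuclei. Among subclusters of at least 100 nuclei, EPHB1 runs from 3.07 to 281 CPM in the TAC1 or VIP row, 0.95 to 173 in the other GABAergic, 2.44 to 471 in the other glycinergic, 4.66 to 372 in the other RGC, 46.0 to 590.2 in the SLIT2 and 4.42 to 86.6 in the FOXP2 row, while EPHA4 subclusters of RGCs all lie at 77.4 CPM or more.

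Genes whose mean levels ran most like those of 3 members were taken from 16556 candidates over the 25 classes and subtypes, which share libraries and, in part, nuclei, so these correlations are descriptions. For EPHB1 the likest were EPHB1-AS-3 (Pearson r = 0.87), MRPL42-AS-5 (0.83) and LINC-C9ORF50-2 (0.81). The first is annotated antisense to EPHB1 itself, and whether counting used strand is not given in the sources used here. How far reads of the 2 were kept apart was not tested. For EPHA4 they were B3GAT1 (0.85), NSG1 (0.84) and LINC-AKAP7-1 (0.84), and for EFNB2 they were EIF4E1B, SRRM4-AS-3 and NBEA-AS-3 (each 0.88).

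The study also compared the stages, which asks whether these genes change as the retina matures and ages. No tested combination of a member with a class or subtype changed between stages at an adjusted p of 0.05. Of 225 combinations of member and population, 81 had counts enough to enter the edgeR quasi-likelihood fits, 27 in classes and 54 in subtypes: EFNB2 in 23 populations, EPHB2 and EPHA4 in 18 each, EPHB1 in 14, and EFNB1 and EPHB6 in 4 each. In classes 0 of 27 were called in all 3 contrasts, where 1.51% of all genes tested were called for Senile against Infancy, 1.04% for Mature against Infancy and 0.0578% for Senile against Mature. In subtypes 0 of 54 were called, beside 0.722%, 0.445% and 0.0103%. At an unadjusted p under 0.05 the counts in the same order of contrasts were 5, 4 and 3 of 27 in classes, beside 9.31%, 11.6% and 9.29% of all genes, and 0, 6 and 8 of 54 in subtypes, beside 7.51%, 9.46% and 7.32%. DESeq2 called 1, 0 and 0.

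Combinations with too few counts for the fits have no test, and the values given here were chosen after they were seen. The share of all genes with ranges as far apart at such counts was not computed. EPHB6 in rods was at 13.3 ± 7.90 CPM in 5 infant retinas (0 to 21.1) and 49.0 ± 13.8 CPM in 4 mature ones (34.8 to 66.1). The 4 senile ones had 30.9 ± 17.1 CPM (14.4 to 54.6), which overlapped both. EFNB1 in astrocytes was at 1.82 ± 2.50 CPM in infant (0 to 4.71) and 11.5 ± 4.50 CPM in mature retinas (5.04 to 17.0), on 0 to 3 UMIs per retina. Senile retinas had 20.6 ± 22.4 CPM (0 to 53.5), which spanned both. EFNB1 in VGluT3-positive ACs was at 11.1 ± 3.52 CPM in infant and 1.62 ± 2.42 CPM in senile retinas, and EPHA4 in astrocytes at 9.44 ± 2.81 and 1.06 ± 2.37 CPM, each on at most 9 UMIs per retina. EPHB2 in CALCRL-positive RGCs was at 39.2 ± 9.03 CPM in 3 mature and 17.7 ± 3.76 CPM in 4 senile retinas. The retinas used for this subtype held only 47787 to 173833 UMIs of all genes each. EPHB6 in DRD2-positive ACs and SLIT2-positive RGCs (Senile against Infancy) and EFNB1 in SLIT2-positive RGCs (Senile against Mature) had ranges that did not overlap on at most 3 UMIs per retina.

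The largest Senile to Infancy difference among the tested combinations was that of EPHB1 in astrocytes, the glia that lie among RGC axons. The infant retinas had 37.9, 42.4, 14.2, 7.16 and 22.1 CPM, the mature ones 51.0, 75.6, 35.3, 72.5 and 76.9, and the senile ones 88.2, 80.2, 44.2, 46.8 and 127. Each of these rests on 2 to 24 UMIs. All 5 senile values were above all 5 infant values, in a combination picked for the size of this difference, while mature values overlapped infant ones. The senile to infant log2 fold change was 1.78 (SE 0.49; edgeR adjusted p = 0.077, range 0.0298 to 1.00 over other settings and 0.0561 to 0.364 with 1 retina left out), and DESeq2 gave an adjusted p of 0.0339. The change was 1.12 (SE 0.65) in the retinas of Cell Ranger 6.1.2 and 2.41 (SE 0.75) in those of 7.0.1, and 0.32 (SE 0.24) when nuclei were named by highest marker score. Summed RGC markers in these astrocytes were at 48.5 to 229 CPM in infant and 72.2 to 308 CPM in senile retinas, summed HC markers at 7.58 to 33.0 and 0 to 107 CPM, and summed cone markers at 78.0 to 308 and 321 to 763 CPM. At 20 CPM or more were 2 of 9 RGC markers in infant and 1 of 9 in senile astrocytes, 0 of 5 and 1 of 5 HC markers, and 4 of 9 cone markers in each. Pooled over retinas, SNCG of the RGC list was at 114 CPM in infant and 160.1 CPM in senile astrocytes, while RBPMS was at 22.0 and 19.4 CPM, NEFM at 18.1 and 15.8, SLC17A6 at 11.02 and 10.56, THY1 at 8.66 and 7.04, and NRN1 at 8.66 and 12.3. At the same stages PROX1 of the HC list was at 16.5 and 22.9 CPM, and ARR3 and PDE6H of the cone list were at 77.9 and 46.4 CPM in infant and 155 and 151 CPM in senile ones. Of the other cone markers, RCVRN was at 39.4 and 222 CPM, OPN1LW at 10.2 and 15.8, and PDE6C at 15.0 and 19.4. GNAT2 was at 22.8 and 22.9 CPM, CRX at 1.57 and 1.76, GRK7 at 1.57 and 0, and OPN1SW at 0.79 and 0. ONECUT1 and ONECUT2 of the HC list were at 0 UMIs in both stages. Their part in the EPHB1 values was not tested.

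EPHB1 in HCs was at 1110 ± 475 CPM in Infancy, 1222 ± 478 in Mature and 1423 ± 479 in Senile retinas, with overlapping ranges (Senile to Infancy log2 fold change 0.48, SE 0.20, edgeR adjusted p = 0.457). In RGCs it was at 141 ± 57.8, 196 ± 50.3 and 195 ± 31.1 CPM, again overlapping (0.50, SE 0.21, adjusted p = 0.593). The retinas of the 2 program versions differed for the RGCs. In the 6.1.2 retinas the infant values 214, 185 and 133 CPM enclosed the senile values 197 and 180.0 (log2 fold change -0.09, SE 0.20). In the 7.0.1 retinas the infant values 80.5 and 92.1 CPM lay below the senile values 248, 170.1 and 179.9 (1.15, SE 0.21, adjusted p = 0.0305).

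EPHB1 in FOXP2-positive RGCs, a subtype that the study singles out in its comparison of stages, had infant values of 185, 158, 118, 56.5 and 89.8 CPM, mature values of 232, 146 and 195, and senile values of 167, 84.8, 203, 265 and 109. The 3 ranges overlapped. The subtype is mixed: pooled over retinas, its subclusters of 326 and 124 nuclei had 86.6 and 4.42 CPM, and those of 95, 92 and 74 nuclei had 295, 374.5 and 262 CPM. The senile to infant log2 fold change was 0.25 (SE 0.34, edgeR adjusted p = 0.945). It was -0.41 in the 6.1.2 retinas and 1.28 in the 7.0.1 retinas, and -0.01 without the retina Infancy 4.

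EFNB2 in PDGFRA-positive ACs, the ligand side of the same comparison, had infant values of 78.6, 80.1, 66.2, 113 and 158 CPM, mature values of 119.9, 87.3, 161, 225 and 196, and senile values of 72.6, 58.8, 199, 105 and 146. Values ran high in the 7.0.1 retinas of each stage, at 105 to 225 CPM beside 58.8 to 119.9 CPM in the 6.1.2 retinas. The senile to infant log2 fold change was -0.13 (SE 0.22, edgeR adjusted p = 0.993), and 0.03 without the version term. Mature retinas had the highest mean, 158 ± 55.8 CPM beside 99.1 ± 37.1 and 116 ± 57.2, and their difference did not pass in either direction (Mature against Infancy 0.42, SE 0.20, adjusted p = 0.667; Senile against Mature -0.55, SE 0.21, adjusted p = 0.787).

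EFNB2 had that shape in ACs as a whole. Infant retinas had 89.0, 84.4, 93.4, 123 and 166 CPM, mature ones 111, 101, 159.9, 215 and 186, and senile ones 100.3, 113, 107, 136 and 156. The mature values overlapped both other stages. The log2 fold change was 0.31 (SE 0.13, edgeR adjusted p = 0.346) for Mature against Infancy and -0.34 (SE 0.13, adjusted p = 0.404) for Senile against Mature, the latter being -0.10 in the 6.1.2 and -0.54 in the 7.0.1 retinas.

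Among HCs, RGCs, Müller cells and ACs, EPHA4 differed most between stages in HCs, where senile retinas had 1190, 1082, 442, 761 and 497 CPM, mature ones 781, 716, 299.7, 218 and 499.8, and infant ones 676, 754, 716, 617 and 314. The ranges overlapped (Senile against Mature 0.64, SE 0.22, edgeR adjusted p = 0.464). Both EPHB2, from 16.8 ± 3.76 to 10.5 ± 5.29 CPM (-0.66, SE 0.28, adjusted p = 0.425), and EPHA4, from 12.9 ± 3.80 to 8.38 ± 3.45 CPM (-0.75, SE 0.35, adjusted p = 0.516), were lower in senile than in infant BCs without passing the test. Named by marker score, the EPHB2 difference was 0.28 and the EPHA4 difference -0.0088.

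**Figure D4:**
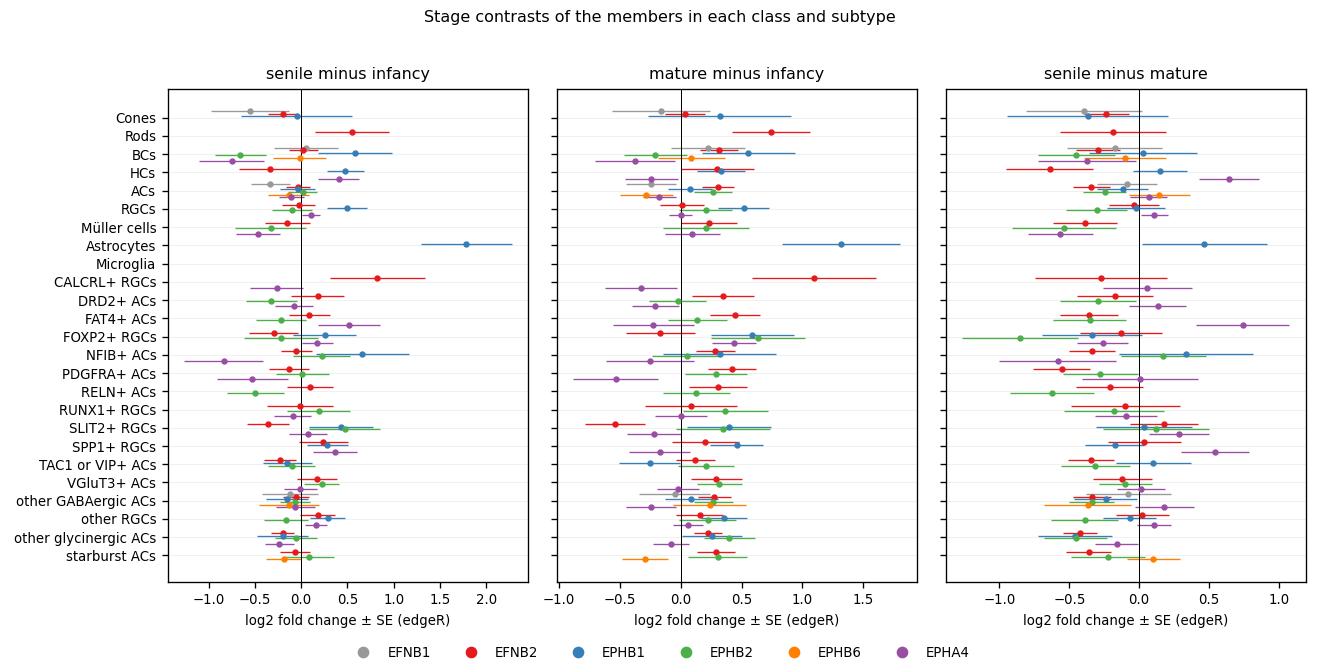
log2 fold change with its SE (x axes) of 6 members in the classes and subtypes where they were tested (rows), for the 3 contrasts between stages. Points lie on both sides of 0 with a median of -0.05, 0.21 and -0.18, and the one farthest from 0 is EPHB1 in astrocytes at 1.78.

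**Figure D5:**
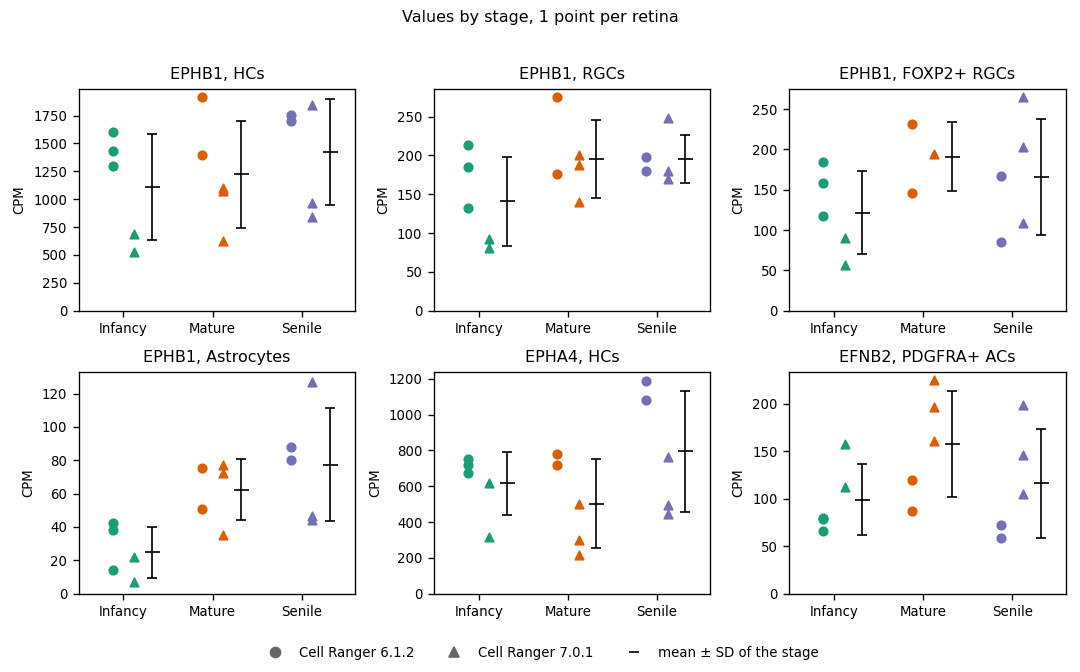
CPM (y axes) of EPHB1 in 4 populations, EPHA4 in HCs and EFNB2 in PDGFRA-positive ACs by stage (x axes), with 1 point per retina, circles for Cell Ranger 6.1.2, triangles for 7.0.1, and bars for mean ± SD of the stage. Astrocytes are the one panel where all senile values, 44.2 to 127 CPM, lie above all infant values, 7.16 to 42.4 CPM, and in PDGFRA-positive ACs triangles lie above circles of the same stage.

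Around the members, 4 lists of pathway genes were counted in the same fits. In classes, Senile against Infancy, the 13 other ephrin and Eph genes had 0 of 47 combinations past an adjusted p of 0.05, the 8 ligand-side partners 0 of 36 and the 3 shedding enzymes 0 of 17 by edgeR, beside the 1.51% of all genes. At an unadjusted p under 0.05 these lists had 4, 3 and 0 combinations, beside 9.31% of all genes, and DESeq2 called 1, 1 and 0. The list medians ran from -0.28 to 0.64 over classes for the first, -0.24 to 0.27 for the second and -0.25 to 0.15 for the third, beside -0.02 to 0.01 over all genes tested. The 16 receptor-side effectors had 1 combination that rose and 3 that fell of 64, beside the same 1.51% of all genes, with medians of -0.29 to 1.83. At an unadjusted p under 0.05 they had 10 of 64, beside 9.31% of all genes, and DESeq2 called 5.

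The 3 that fell were all KALRN, which encodes kalirin, an exchange factor that EphB receptors use to activate Rac in dendritic spines. It fell from 76.8 ± 7.02 CPM in infant to 57.4 ± 5.23 in senile ACs (log2 fold change -0.53, SE 0.09, edgeR adjusted p = 0.00449), from 453 ± 105 to 172 ± 105 CPM in astrocytes (-1.59, SE 0.32, adjusted p = 0.0113) and from 476 ± 53.1 to 361 ± 66.5 CPM in BCs (-0.49, SE 0.11, adjusted p = 0.0363). Genes lower in senile retinas were 0.179% of those tested in ACs, 0.689% in astrocytes and 0.353% in BCs. Infant and senile ranges did not overlap in any of the 3, which were picked by the test on these same values, so this adds no separate support. Summed cone markers in these astrocytes did not overlap either, at 78.0 to 308 CPM in infant and 321 to 763 CPM in senile retinas, and their part in the KALRN values was not tested. The BC call was lost without any one infant retina, without Senile 2 or without Senile 5, with an adjusted p of up to 0.126, while the log2 fold change stayed between -0.59 and -0.38. It was lost also without the version term (adjusted p = 0.143) and with the replicate number as a block. Over the other settings the log2 fold change in BCs lay between -0.60 and -0.45. In the retinas of each version alone none of the 3 passed, with the same direction and adjusted p of 0.0932 to 0.445, and the AC call was lost when nuclei were named by marker score (adjusted p = 0.162).

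The one that rose was VAV3, an exchange factor of the Vav family that couples Eph receptors to endocytosis, in rods. It went from 7.32 ± 5.79 CPM in 5 infant retinas to 135 ± 99.3 in 4 senile ones (log2 fold change 4.01, SE 0.87, edgeR adjusted p = 0.0131), and 1.25% of the genes tested in rods rose. The call was lost without Infancy 5 or Senile 2 (adjusted p of up to 0.0828), while the log2 fold change stayed between 3.60 and 4.39 with 1 retina left out. It was 0.74 with nuclei named by marker score. The adjusted p was 0.221 in the 7.0.1 retinas alone. Summed cone markers in these rods were at 865 to 1165 CPM in infant and 1055 to 1453 CPM in senile retinas, with 6 and 7 of 9 markers at 20 CPM or more. Pooled over retinas, ARR3 went from 74.4 to 219 CPM and PDE6H from 39.8 to 208 CPM, while CRX was at 248 and 197 CPM and OPN1SW at 0 UMIs in both stages. Of the other cone markers, RCVRN was at 336 and 423 CPM, OPN1LW at 17.3 and 26.5, and GRK7 at 177 and 117. GNAT2 was at 20.4 and 22.7 CPM and PDE6C at 14.3 and 15.1. Their part in the VAV3 values was not tested, and the study lists VAV3 itself among its markers of short-wavelength cones.

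In subtypes, Senile against Infancy, these lists had 5 calls, named here after their values were seen. KALRN fell in glycinergic ACs outside the gates, from 87.6 ± 3.86 to 38.5 ± 8.31 CPM (-1.36, SE 0.17, edgeR adjusted p = 6e-05), and in GABAergic ACs outside the gates (-0.62, SE 0.12, adjusted p = 0.0139). VAV3 rose in NFIB-positive ACs (1.29, SE 0.26, adjusted p = 0.0124). Of the other Eph receptors, EPHA7 rose in NFIB-positive ACs from 53.0 ± 14.6 to 121 ± 16.7 CPM (1.01, SE 0.19, adjusted p = 0.00529) and EPHA6 rose in starburst ACs from 186 ± 36.9 to 306 ± 52.1 CPM (0.71, SE 0.14, adjusted p = 0.0153). Genes that fell were 0.308% of those tested in the glycinergic and 0.137% in the GABAergic group, and genes that rose were 0.641% in NFIB-positive and 0.655% in starburst ACs. For Mature against Infancy the lists had 2 calls, both VAV3, in rods, where 1.48% of the genes tested rose, and in GABAergic ACs outside the gates, where 0.501% did. For Senile against Mature they had 0 by edgeR at an adjusted p of 0.05. At an unadjusted p under 0.05 the last contrast had 19 of 164 combinations in classes, beside 9.29% of all genes, and 16 of 289 in subtypes, beside 7.32%, and DESeq2 called 0 and 1.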

How the data were processed

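Nuclei were isolated from frozen TS retinas and libraries were prepared with 10x Genomics 3′ kits, v3.1 per the study's methods and v2 per the labels. The deposited tables hold raw UMI counts per gene and nucleus, made by the authors with Cell Ranger against the TS_3.0 genome. The matrix headers name Cell Ranger 6.1.2 or 7.0.1, while the submitters' processing notes name 5.0.1 for some retinas. Whether introns or strand were used in counting is not given in the sources used here.

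The study's own limits were applied to each barcode, above 200 and below 6000 genes and a mitochondrial share below 5%. Doublets were called by simulated neighbours at the rate the study's methods give for DoubletFinder (8 per 1000 for each 1000 nuclei), and all nuclei were clustered (2000 variable genes other than the members and the listed pathway genes, 30 components, 20 neighbours, Leiden resolution 3; igraph 0.11.9, scikit-learn 1.9.0). Clusters were named from marker lists, and 15372 nuclei stayed without a class. Counts were summed per retina and population with at least 10 nuclei. Stages were tested with edgeR 4.0.16 (TMM, filterByExpr, quasi-likelihood F-test, stage and Cell Ranger version as terms, Benjamini-Hochberg over all genes of a population) and with DESeq2 1.42.0 as an alternative. Tested on simulated data with the same steps, 88.5% to 96.6% of 4-fold and 42.4% to 55.9% of 2-fold Senile to Infancy changes were found over 6 populations. The simulations changed a fixed number of genes, held no version effect and gave 3 to 9 false calls per population. The share found can therefore differ in the data themselves. Orders of levels were tested as described with the results. The lncRNA LINC-FRMD8-1 alone took 12.1% to 21.2% of the UMIs of a retina and stayed in the library sizes. The limit given for a count of 0 covers counting error only.

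The members, gene lists and subtypes were chosen with earlier results of these data known. Named in the text are the 9 members, the listed pathway genes past an adjusted p of 0.05 for Senile against Infancy in a class, and the 3 genes most correlated with each of EFNB2, EPHB1 and EPHA4. Pathway genes past the threshold in subtypes or for Mature against Infancy, antisense features and markers were named after their values were seen. Alternatives tried were each Cell Ranger version alone, no version term, the replicate number as a block, total counts without TMM, LINC-FRMD8-1 left out, another pseudocount, no filter on low counts, at least 20 nuclei, doublets kept, another naming of nuclei, gating by single UMIs and leaving out each retina. No sequence is shown, and the values of some class markers are not reported here.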

Additional observations from a re-analysis of the deposited data

Results flagged for a closer look

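In 3 of 49 groups of 4 or 5 retinas checked, 1 retina lay far from the others by Dixon's 95% criterion, which chance alone meets in about 1 of 20 groups. EPHB1 in SLIT2-positive RGCs was at 500.0 CPM in Senile 3 beside 329 to 367 CPM in the other senile retinas. EPHB2 in PDGFRA-positive ACs was at 216 CPM in Senile 3 beside 81.0 to 105 CPM. EPHB6 in starburst ACs was at 312 CPM in Senile 2 beside 132 to 147 CPM.

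Features annotated antisense to members held UMIs of their own over all barcodes within the limits, 654 for EPHB1-AS-1, 256 for EPHB1-AS-3, 485 for EPHB2-AS-3, 218 for EPHB2-AS-4 and 139 for EPHB6-AS-1. Nuclei without a class held 51.6% of the EPHB4 UMIs and 33.0% of the EFNB1 UMIs of all nuclei that were not doublets.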

How the results depend on the processing

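No member passed an adjusted p of 0.05 between stages under most settings, and the exceptions were all EPHB1. In classes, Senile against Infancy, the count was 1 with total counts in place of TMM and 1 by DESeq2 (both astrocytes), and 1 in the 7.0.1 retinas alone (RGCs). Mature against Infancy gave 1 without the filter on low counts (RGCs). In subtypes, Senile against Infancy gave 1 in the 7.0.1 retinas alone (SLIT2-positive RGCs). With 1 retina left out all 6 counts stayed at 0. EFNB2 in PDGFRA-positive ACs was 0.0253 without the version term and -0.25 to -0.02 with 1 retina left out. EPHB1 in FOXP2-positive RGCs was -0.41 in the 6.1.2 retinas alone and -0.0131 to 0.55 with 1 retina left out, the lowest without Infancy 4. EPHB1 in RGCs, Senile against Infancy, was -0.0893 in the 6.1.2 retinas alone, and EPHB2 in BCs was 0.28 with nuclei named by marker score. The cause of these shifts was not tested.

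Under other settings, neighbour pairs were counted with p-values adjusted over the members' own pairs, where 16 passed over classes and 8 over subtypes. Over classes they were 0 in the retinas of either version alone, where the smallest p is 0.0156 (6.1.2) and 0.00781 (7.0.1), and 15 to 17 with 1 retina left out. Over subtypes they were 0 in either version alone, 3 of 108 when single UMIs gated the nuclei, and 7 to 9 with 1 retina left out. In either version alone a pair could pass only if many pairs lay at the smallest p, so these counts of 0 carry little weight. Named by marker score, 5 differences turned: EFNB1 in RGCs minus rods was -0.21, EPHB1 in BCs minus Müller cells -0.18, EPHB2 in BCs minus astrocytes -0.92, EPHB6 in cones minus HCs -4.59 and EPHA4 in HCs minus RGCs -0.15. The replicate block changed 1 call, KALRN in BCs (log2 fold change -0.46, adjusted p = 0.163), and left EPHB1 in astrocytes at 1.66. The numbers do not pair the retinas: 12 of 15 same-numbered pairs correlated over 0.1 (r from -0.47 to 0.62), and 4 of 15 retinas correlated best with their own number. Adjustment over all genes' pairs, leaving out Mature 4 with Senile 3, and leaving out clusters mostly of 1 retina were chosen after seeing the data. Few nuclei limit HCs, astrocytes, rods and microglia.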

Other observations

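A cluster of 486 nuclei that stayed without a class, because its marker scores pointed to both HCs and BCs, held EPHB1 at 739 CPM (1964 UMIs), EPHA4 at 242 CPM and EFNB2 at 90.7 CPM. It was led by FSTL4, TNR, TMEFF2 and LAMA2, and the retina that gave most of its nuclei gave 18.2%. Nuclei without a class held 20.6% of the EPHB1 UMIs of all nuclei that were not doublets. A cluster of 1867 nuclei with pigment epithelium markers, 67.1% of it from Mature 4, had 44 UMIs of EPHB4 (6.09 CPM) and 119 UMIs of EFNB1 (16.5 CPM).

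The cone cluster led by OPN1SW, the short-wavelength opsin, had EFNB2 at 117 ± 22.8 CPM (n = 14), beside 102 ± 24.1 CPM (n = 15) in the cones of the other clusters. This pair was chosen after its values were seen and was not tested. The stage change of a member was compared between classes in 105 pairs, and by exact permutation 0 passed an adjusted p of 0.05, while 16 had an unadjusted p under 0.05 and the lowest adjusted p was 0.208. The smallest p of that test is 0.00794, and the same share over all genes was not computed. The shuffle of retinas took no account of the Cell Ranger version. After adjustment over 105 pairs, a single pair at the smallest p could not pass 0.05, so the count of 0 carries little weight.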
